A study of Mus musculus with 3 samples.

Results

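Amino acid transporters of mouse regulatory T cells were described through 10 genes chosen by name: Slc1a5, Slc38a1, Slc38a2, Slc3a2, Slc7a5, Slc7a6, Slc7a11, Slc43a2, Slc7a1 and Slc38a9. They are 10 of the 55536 mouse genes measured. The rule that picks them uses their names and no measured value, but the names were chosen with earlier results of these data known. Polyadenylated RNA was sequenced in 3 libraries, which the labels give as technical replicates 1, 2 and 3 of biological replicate 1, and libraries are named here by those numbers. All 3 form 1 group: regulatory T cells, taken as primary cells, of male adult origin at 4 months of age, of the strain Foxp3CreERT2 x Rosa26YFP. By these allele names, an inducible Cre recombinase is placed at Foxp3, the gene of the transcription factor that defines these cells, and a YFP reporter at the Rosa26 locus. The source label traces the cells to the bone marrow hematopoietic lineage, and the labels do not say whether an inducer of Cre was given or how the libraries relate to animals and sorts. With 1 group there is no comparison between conditions, so levels are a description and each test asks only whether the libraries differ by more than counting error. The p-values therefore do not measure the size of a difference, and in genes with many counts a small difference can pass. The labels call the libraries technical replicates, but markers of other cells differed between them, as given below.

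Amino acids cross the plasma membrane of T cells through carriers of the solute carrier (SLC) families. Slc1a5 (ASCT2) and the Slc38 carriers of system A bring in glutamine and other neutral amino acids, and Slc7a5 (LAT1) exchanges intracellular amino acids for leucine and other large neutral ones. Slc3a2 (CD98 heavy chain) is a glycoprotein that binds light chains such as Slc7a5, Slc7a6 and Slc7a11 and takes them to the cell surface. Leucine, arginine and glutamine control the kinase complex mTORC1 at the lysosome, where Slc38a9 acts as an arginine sensor, and T cells are known to raise Slc7a5, Slc3a2 and Slc1a5 when they are activated.

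Genes received 9299054 expected counts in library 1, 9188612 in library 2 and 8284381 in library 3. All 8 regulatory T cell markers reached at least 1 TPM (transcript abundance per length, scaled to the same total in each library) in each library. A gene that does so is called detected here. Foxp3 stood at 27.56, 43.66 and 47.12 TPM in libraries 1, 2 and 3. Passing this limit cannot test the label of the cells, because all 6 B cell markers passed it too. Markers of other cells were present too, and they differed between the libraries. The summed level of 5 plasma cell markers was 1998, 215 and 1395 TPM in libraries 1, 2 and 3, and that of 6 erythroid markers was 1685, 9.02 and 1497 TPM. The 6 B cell markers summed to 153, 119 and 206 TPM, with 6 of 6 detected, and the 6 neutrophil markers to 40.1, 0.6 and 4.09 TPM. The 5 macrophage and monocyte markers summed to 24.97, 17.99 and 38.86 TPM, and the 4 progenitor markers to 0.73, 1.73 and 2.67 TPM. Library 2 was thus the lowest of the 3 in plasma cell, erythroid, neutrophil, B cell and macrophage markers, and the part of these cells in the results below was not tested. In such a mixture, fewer cells of a type and less RNA per cell cannot be told apart. Library 1 also differed from the others with gene length, and the median log2 deviation of its counts from the mean of the 3 libraries was -0.22 in the decile of the longest genes.

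Several of the carriers were represented in part by transcripts that keep an intron. The result on Slc1a5 transcripts turns on 1 such intron, and no intron of Slc38a9 or Slc38a1 is printed. The bases around 4 of these introns, in Slc1a5, Slc38a2, Slc7a6 and Slc7a1, are shown first. They are spliced-out stretches within the coding part of the gene that the GENCODE M21 annotation keeps in 1 transcript model, on mm10, read 5′ to 3′ along the gene from the transcript sequences. Capitals mark coding exon bases, of which 20 stand on each side, and lower case marks intron bases. Each of the 4 introns starts with gt and ends with ag.
Slc1a5-202, whole intron 7, chr7:16795933-16796043, plus strand: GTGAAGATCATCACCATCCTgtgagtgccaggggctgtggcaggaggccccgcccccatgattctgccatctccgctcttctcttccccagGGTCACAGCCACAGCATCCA
Slc38a2-202, whole intron 6, chr15:96695075-96695235, minus strand: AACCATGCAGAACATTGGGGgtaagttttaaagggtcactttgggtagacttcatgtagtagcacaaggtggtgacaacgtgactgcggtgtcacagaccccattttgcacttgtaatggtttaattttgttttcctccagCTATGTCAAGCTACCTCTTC
Slc7a6-207, start of intron 4, chr8:106192464-106192503, plus strand: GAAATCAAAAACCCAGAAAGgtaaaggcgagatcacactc
Slc7a6-207, end of intron 4, chr8:106193131-106193170, plus strand: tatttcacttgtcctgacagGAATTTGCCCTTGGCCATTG
Slc7a1-205, start of intron 7, chr5:148341913-148341952, minus strand: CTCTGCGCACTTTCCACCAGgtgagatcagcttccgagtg
Slc7a1-205, end of intron 7, chr5:148340656-148340695, minus strand: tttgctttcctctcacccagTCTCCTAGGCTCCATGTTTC
The Slc1a5 intron is the shortest and the richest in G and C of the 4, with 71 bases of which 66.2% are G or C. The Slc38a2 intron has 121 bases with 43.0% G or C, the Slc7a6 intron 667 bases with 52.6%, and the Slc7a1 intron 1257 bases with 46.2%.

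The cells carried RNA of 9 of the 10 carriers at 1 TPM or more in every library. By the same rule 45.9% of all protein-coding genes (10120 of 22028) were detected. Since the 10 genes were chosen with earlier results of these data known, the 2 shares are not a like comparison. The glutamine carriers Slc1a5 and Slc38a1 and the heavy chain Slc3a2 stood at the top by mean TPM. Slc7a5, the leucine carrier known from activated T cells, was the lowest of the 9 detected, and the cystine and glutamate exchanger Slc7a11 was close to 0. The summed level of the 10 genes was 237, 400.08 and 364 TPM in libraries 1, 2 and 3. Slc1a5 took 31.3% ± 7.62 (SD, n = 3) of that sum, Slc38a1 18.1% ± 3.22 and Slc3a2 17.2% ± 3.99. Slc7a6, Slc38a9, Slc38a2 and Slc43a2 took between 5.53% and 9.17% each, Slc7a1 3.51% ± 0.449 and Slc7a5 0.670% ± 0.279.

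**Figure D1:**
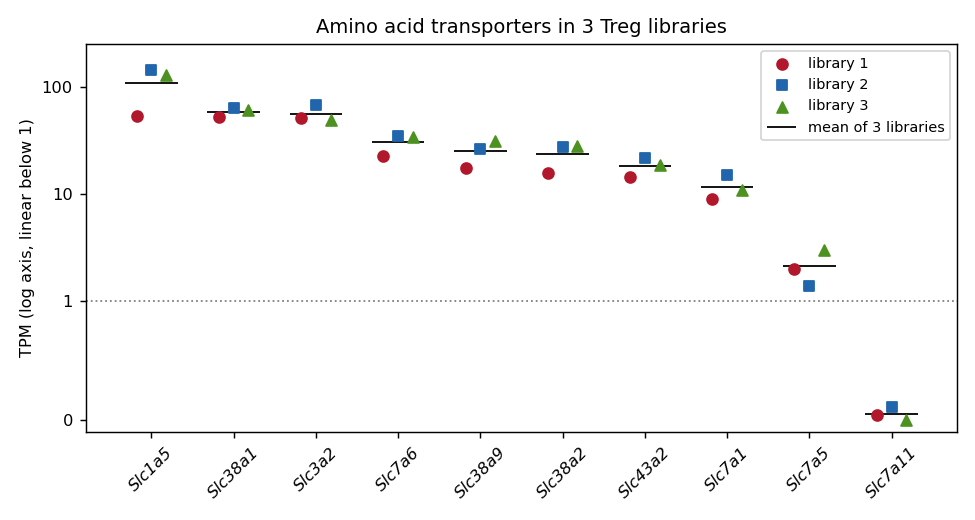
TPM of the 10 carriers (log axis, linear below 1) in libraries 1, 2 and 3, with the mean of the 3 as a bar and the detection limit of 1 TPM as a dotted line. By this TPM Slc1a5 is highest in each library and spreads from 53.36 to 143.41 TPM. Slc7a5 lies between 1.39 and 2.98 TPM and Slc7a11 at or under 0.11 TPM.

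The order of the levels was the same within the libraries for most neighbours. Slc1a5 was above Slc38a1 in 3 of 3 libraries, although the TPM ranges of these 2 genes overlapped because Slc1a5 was low in library 1. By another estimate, the posterior mean TPM, Slc3a2 (48.07) was above Slc1a5 (46.87) in library 1. By that estimate Slc1a5 was the highest in libraries 2 and 3, at 121.06 and 103.51. Slc38a1 was above Slc3a2 in 2 of 3 libraries, and Slc38a9 above Slc38a2 in 2 of 3, so neither pair could be ordered beyond its spread. Gaps with no overlap of ranges lay between Slc3a2 and Slc7a6, between Slc7a1 and Slc7a5, and between Slc7a5 and Slc7a11.

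The libraries were compared with a chi-square test of homogeneity on rounded expected counts, scaled between libraries with TMM factors and adjusted by Benjamini-Hochberg over all 13071 genes with 30 or more counts. Of the 10 carriers, 9 had enough counts for the test and 6 passed it at an adjusted p of 0.05. The same test called 54.5% of all genes tested (7122 of 13071), and 60.4% of genes with summed counts in the range of these 9, so the share among the carriers is near the background. A ratio of 2 or more between the highest and the lowest library was reached by 2 of them, Slc1a5 and Slc7a5, against 8.79% of all genes tested. The median ratio between the highest and the lowest library was 1.33 for the 9 carriers tested and 1.37 for all genes tested. Called genes with their lowest scaled count in library 1 were 4 of the 9 carriers (Slc1a5, Slc38a2, Slc7a6 and Slc38a9) and 23.9% of all genes tested.

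**Figure D2:**
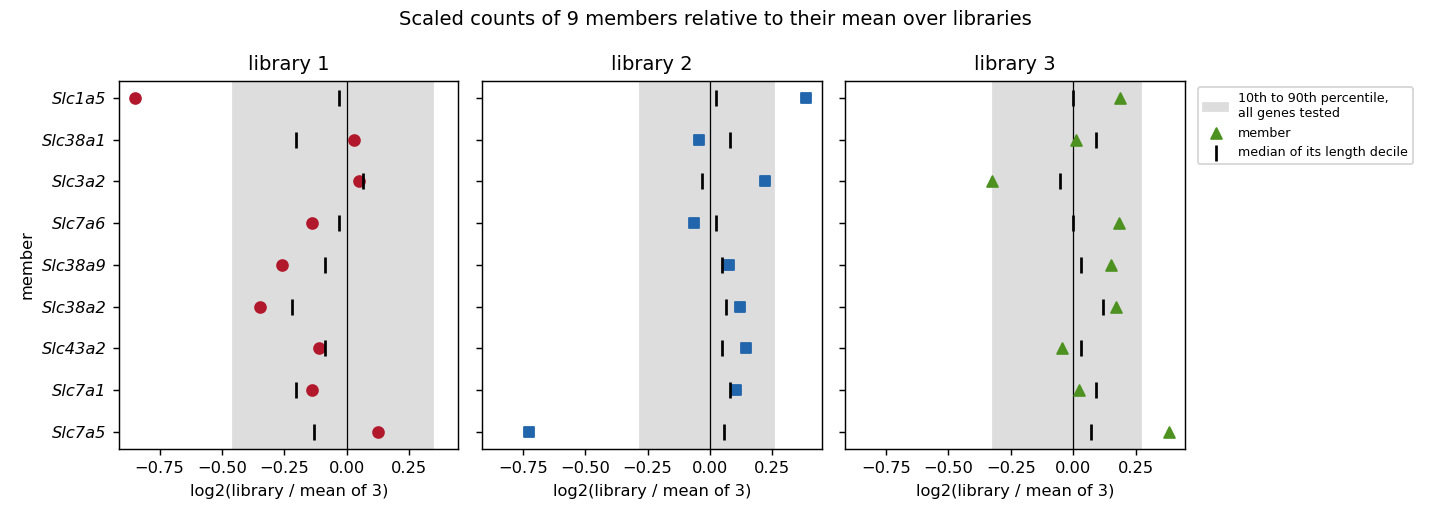
Log2 of the scaled count of each library over the mean of the 3, for the 9 carriers tested, with the 10th to 90th percentile of all genes tested in grey and the median of the gene's length decile as a black tick. Slc1a5 lies outside the grey band in library 1 (-0.85) and library 2 (0.39), and Slc7a5 lies outside it in library 2 (-0.72) and library 3 (0.38).

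Slc1a5 (ENSMUSG00000001918.17, chr7:16781340-16798274, plus strand) encodes ASCT2, a sodium-dependent exchanger of glutamine, alanine, serine and cysteine. It was measured at 53.36, 143.41 and 129.59 TPM in libraries 1, 2 and 3, with 888, 2248 and 1747 expected counts. Libraries 2 and 3 were high and library 1 was low. Its mean of 108.8 ± 48.5 TPM placed it at the 87.7th percentile of detected protein-coding genes. The scaled count in library 1 was 0.424 of that in library 2, with a 95% exact binomial interval from 0.392 to 0.459, and the adjusted p of the chi-square test was 9.39e-109. The scaled count in library 2 was 1.15 times that in library 3 (interval 1.08 to 1.22). Without library 1 the log2 ratio of library 2 over library 3 was 0.20 with an adjusted chi-square p of 0.000336. Its deviation of -0.85 in library 1 compares with a median of -0.03 for genes of its length decile.

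Slc38a1 (ENSMUSG00000023169.15, chr15:96571418-96642913, minus strand) encodes SNAT1, a sodium-coupled carrier of glutamine and other neutral amino acids. It stood at 51.65, 63.74 and 60.18 TPM, with 1617, 1649 and 1530 counts. Its scaled counts gave the smallest highest-to-lowest ratio of the 9 carriers tested, 1.05, and the gene did not pass the test (adjusted chi-square p = 0.375). Genes of its length were low in library 1, with a decile median of -0.20, and Slc38a1 at 0.03 was not. With scaling within 10 bins of gene length it was called, at a log2 ratio of 0.36 for library 1 over library 2 (adjusted chi-square p = 1.31e-12), and it was also called in the counts of the second gene table (0.22, adjusted chi-square p = 0.0048).

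Slc38a2 (ENSMUSG00000022462.7, chr15:96687392-96699730, minus strand) encodes SNAT2, the system A carrier known for its induction when amino acids run short. It was measured at 15.67, 27.32 and 27.95 TPM, with 592, 879 and 812 counts. Library 1 was low and libraries 2 and 3 lay close together. The scaled count of library 1 was 0.698 of that of library 3 (interval 0.627 to 0.777; adjusted chi-square p = 3.81e-11). That call was lost with scaling by gene length (log2 ratio 0.18, adjusted chi-square p = 0.0704) and without library 1 (0.05, p = 0.670). Slc38a1 was 3.30, 2.33 and 2.15 times as high as Slc38a2 in TPM in libraries 1, 2 and 3, and above it in each.

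Slc3a2 (ENSMUSG00000010095.13, chr19:8706882-8723369, minus strand), the CD98 heavy chain, stood at 50.7, 67.22 and 48.95 TPM, with 568, 688 and 420 counts. Library 2 was high and library 3 low in scaled counts, a ratio of 1.46 (interval 1.29 to 1.65; adjusted chi-square p = 3.29e-08). Without library 3 the call was lost (log2 ratio 0.14 for library 2 over library 1, adjusted chi-square p = 0.137). Set against 6 light chains it can bind (Slc7a5, Slc7a6, Slc7a7, Slc7a8, Slc7a10 and Slc7a11), whose summed level was 31.77, 42.41 and 44.37 TPM, the heavy chain was higher in each library. The ratio of heavy chain to summed light chain TPM was 1.60, 1.59 and 1.10, with a mean of 1.43 ± 0.281 (SD, n = 3). By posterior mean TPM it was 1.31, 1.34 and 0.971, so that in library 3 the heavy chain was not above the light chains.

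Slc7a6 (ENSMUSG00000031904.5, chr8:106168857-106198706, plus strand) encodes y+LAT2, which exchanges intracellular arginine for glutamine and other neutral amino acids. It was measured at 22.71, 34.47 and 33.94 TPM, with 415, 469 and 497 counts. Library 3 was highest in scaled counts and library 1 lowest, at 0.800 of library 3 (interval 0.700 to 0.913; adjusted chi-square p = 0.00392). Without library 3 it was no longer called (log2 ratio 0.04 for library 2 over library 1, adjusted chi-square p = 0.738). Slc7a6 took 71.5%, 81.3% and 76.5% of the summed light chain TPM, a mean of 76.4% ± 4.90 (SD, n = 3), and was the main light chain in each library. By posterior mean TPM its share was 59.4% ± 3.98. A coding model of 616 bases, Slc7a6-205, held 40.4%, 29.8% and 35.2% of the TPM of Slc7a6 but a mean of 7.02% of its counts.

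Slc7a5 (ENSMUSG00000040010.10, chr8:121881150-121907694, minus strand) encodes LAT1. It stood at 2.00, 1.39 and 2.98 TPM, from 54, 32 and 62 counts. Its mean of 2.12 ± 0.802 TPM was at the 4.09th percentile of detected protein-coding genes. The percentile was not computed by posterior mean TPM, by which Slc7a5 was higher in each library. Library 2 was low, at 0.460 of library 3 in scaled counts (interval 0.290 to 0.716; adjusted chi-square p = 0.00306). Without library 2 the call was lost (log2 ratio 0.26 for library 3 over library 1, adjusted chi-square p = 0.441), and it was lost in the counts of the second gene table too (0.55, adjusted chi-square p = 0.388). Library 2 was also the library with the lowest plasma cell, erythroid, neutrophil, B cell and macrophage markers, whose part in this difference was not tested. Slc7a5 took 6.30%, 3.28% and 6.72% of the light chain TPM, so that Slc7a6 was 11.4, 24.8 and 11.4 times as high in libraries 1, 2 and 3. The size of this gap depends on the estimate of TPM. By the posterior mean TPM that the same table lists, Slc7a5 stood at 6.26, 6.51 and 8.18, a mean of 16.05% ± 1.78 of the light chains, and Slc7a6 was 3.24, 4.51 and 3.50 times as high. By the second transcript table Slc7a5 stood at 0.90, 1.67 and 1.40 TPM, and Slc7a6 was 9.28, 9.76 and 12.4 times as high. There the TPM of Slc7a5 was highest in library 2, but its estimated counts, 62, 44 and 69, were lowest in library 2. In library 2 alone, short models of 174 and 618 bases took 41.0% and 11.8% of the TPM of Slc7a5. Slc7a6 was above Slc7a5 in each library by all 3 estimates. A gene on the opposite strand that overlaps it, Gm20388, held 321, 263 and 227 expected counts, and the sources do not state if reads were counted by strand.

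By the main TPM Slc7a10, the light chain of the asc exchanger of small neutral amino acids, was higher than Slc7a5 in each library. It stood at 6.11, 5.32 and 4.26 TPM from 88, 57 and 47 counts, the last being fewer than the 62 of Slc7a5 in library 3. The order was not examined by the second transcript table or by posterior mean TPM, by which Slc7a5 stood at 6.26, 6.51 and 8.18. Slc7a7, the y+LAT1 light chain, stood at 0.69, 1.01 and 3.02 TPM and Slc7a8, the LAT2 light chain, at 0.22, 0.11 and 0.17 TPM, both under the detection rule.

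Slc7a11 (ENSMUSG00000027737.10, chr3:49892526-50443614, minus strand) encodes xCT, the exchanger of cystine for glutamate. The main table listed 1, 3 and 0 counts in libraries 1, 2 and 3, that is 0.04, 0.11 and 0 TPM. A count of 0 in library 3 allows up to 3 counts, or 0.362 CPM (counts scaled to the library total). The second transcript table, made by another quantification, gave it 41.4, 57.6 and 29.3 estimated counts, or 0.64, 1.18 and 0.67 TPM, with 98.7% of that TPM in transcripts that keep an intron. In the second gene table it had 0, 0 and 1 counts.

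Slc43a2 (ENSMUSG00000038178.16, chr11:75531694-75577575, plus strand) encodes LAT4, a carrier of large neutral amino acids that needs no heavy chain. Its levels were 14.49, 21.44 and 18.62 TPM, with 286, 367 and 287 counts. It did not pass the test (ratio 1.19 for library 2 over library 1, adjusted chi-square p = 0.098), although the unadjusted interval for library 1 over library 2 ran from 0.715 to 0.980. In the same direction it was called with library totals as the scale (log2 ratio 0.38, adjusted chi-square p = 0.00852) and in the counts of the second gene table (0.34, adjusted chi-square p = 0.0163). It was 7.25, 15.4 and 6.25 times as high as Slc7a5 in TPM, and 2.39, 3.33 and 2.27 times as high in posterior mean TPM. An antisense gene, Gm45606, overlaps it and held 4.07, 6.18 and 4.54 TPM.

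Slc7a1 (ENSMUSG00000041313.14, chr5:148327410-148399904, minus strand) encodes CAT1, the carrier of arginine and lysine of system y+. It stood at 9, 14.97 and 10.9 TPM, from 298, 380 and 320 counts. Library 2 was highest and library 1 lowest, but the test was not passed (ratio 1.19, adjusted chi-square p = 0.129). In the counts of the second gene table the same direction was called, at a log2 ratio of 0.76 for library 2 over library 1 (adjusted chi-square p = 8.45e-08), and it was called with library totals as the scale (0.37, adjusted chi-square p = 0.00795).

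Slc38a9 (ENSMUSG00000047789.5, chr13:112660751-112738749, plus strand), the lysosomal arginine sensor, was measured at 17.44, 26.01 and 31.16 TPM, with 359, 486 and 457 counts. Library 1 was low, at 0.752 of library 3 in scaled counts (interval 0.653 to 0.866; adjusted chi-square p = 0.000395). Without library 1 the call was lost (log2 ratio 0.08, adjusted chi-square p = 0.625), and with scaling by gene length the adjusted chi-square p was 0.0346.

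Transcripts that keep an intron made up a large part of several carriers, above all of Slc1a5. The transcript table gives each transcript as a percent of its gene's TPM, and transcripts were grouped by their M21 class: coding with a consensus coding sequence (CCDS), other coding, retained intron, nonsense-mediated decay and processed transcript. Over 6262 detected protein-coding genes that have both a CCDS and a retained-intron transcript, the median share of retained-intron transcripts was 14.5%, with quartiles at 4.81% and 30.9%. The 9 detected carriers ranged from 0% to 65.0%, with a median of 14.5% per TPM. Slc1a5, at 65.0% ± 4.68 (SD, n = 3), was higher than 95.3% of these genes, Slc38a9 at 56.0% ± 4.60 was higher than 92.05%, Slc7a1 at 43.9% ± 5.91 was higher than 85.9%, and Slc38a1 at 37.2% ± 6.0 was higher than 80.9%. By mean percent of TPM the leading transcript was a retained-intron one for Slc1a5 and Slc38a9 and for 10.6% of the 6262 genes (665). Slc1a5-202 led in each library, but the lead of Slc38a9-207 (22.66%) held in library 1 alone. The CCDS transcript Slc38a9-201 led in library 2 (18.31%) and the nonsense-mediated decay transcript Slc38a9-202 in library 3 (20.4%), and by counts Slc38a9-201 led. The lead of Slc38a1 changed too, from the CCDS transcript Slc38a1-203 (33.42%) in library 1 to the retained-intron Slc38a1-204 (23.06%) in library 2. In library 3 the CCDS transcript Slc38a1-201 (21.77%) led. By the second transcript table Slc38a1-204 led, and by counts Slc38a1-201.

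**Figure D3:**
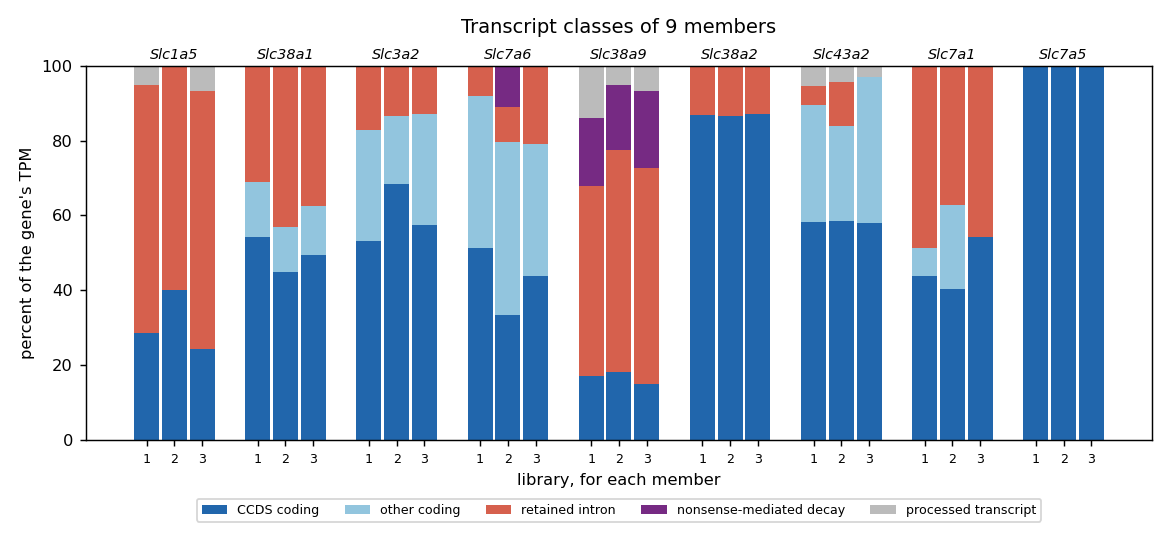
Percent of each carrier's TPM in 5 transcript classes, with 1 bar per library. Retained-intron transcripts (red) take 59.8% to 68.9% of Slc1a5, while CCDS transcripts (dark blue) take 100% of Slc7a5 and 86.8% of Slc38a2.

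For Slc1a5 the class was carried mainly by 1 transcript, Slc1a5-202, at 46.25%, 43.81% and 54.72% of the gene's TPM in libraries 1, 2 and 3. The CCDS transcript Slc1a5-201 took 28.6%, 40.2% and 24.4%, and was below Slc1a5-202 in each library. Slc1a5-202 has 2807 bases and Slc1a5-201 has 2764. They differ by intron 7, whose 71 bases are printed above, and by 28 bases at the start that only Slc1a5-201 has. Their shares thus rest on reads that touch these bases or span the junction where intron 7 is spliced out. Read in the frame of Slc1a5-201, the retained intron brings a tga stop codon that starts at its base 2, after 432 codons, where the spliced transcript has 555 codons before its stop. No protein was measured.

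**Figure D4:**
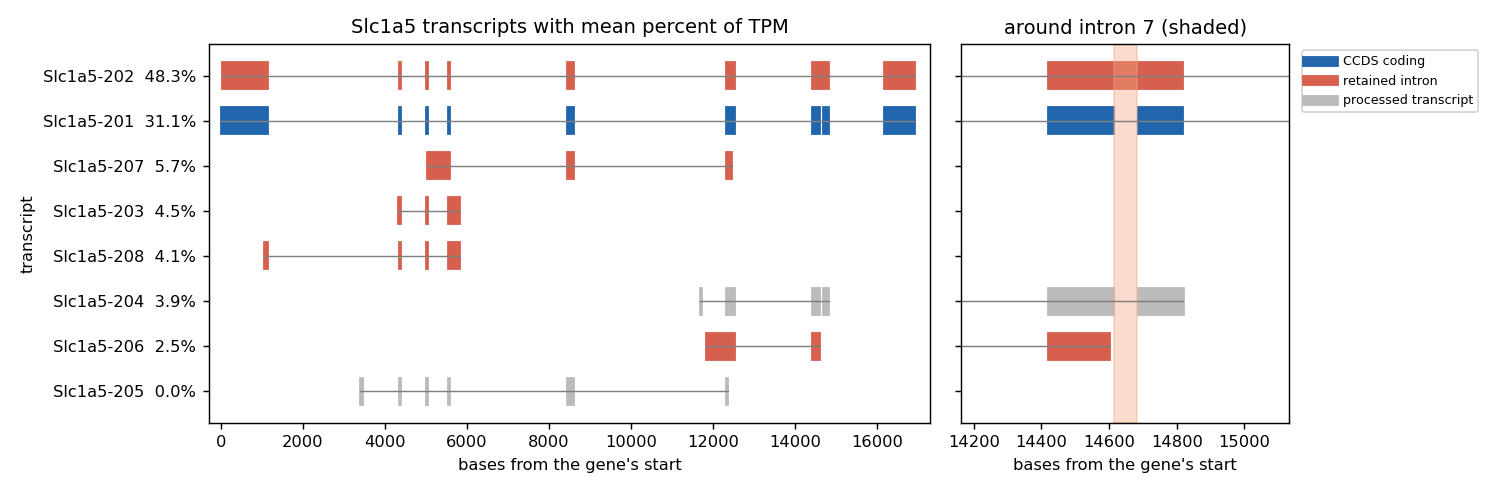
Exons (boxes) of the 8 annotated Slc1a5 transcripts against the distance in bases from the start of the gene, with each transcript's mean percent of the gene's TPM over 3 libraries, and a closer view around intron 7. Slc1a5-202 (48.3%) and Slc1a5-201 (31.1%) share their exons except that Slc1a5-202 runs through the shaded intron and lacks 28 bases at the start.

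The CCDS transcript of Slc1a5 alone stood at 15.25, 57.63 and 31.65 TPM, and that of Slc38a9 at 3.01, 4.76 and 4.64 TPM. On this count of CCDS transcripts alone, Slc1a5 (34.8 ± 21.4 TPM), Slc3a2 (33.7 ± 10.6) and Slc38a1 (28.8 ± 0.905) had overlapping ranges. Slc38a1 was the steadiest of the 3, at 28.03, 28.59 and 29.80 TPM. The CCDS transcripts of Slc38a2 held 20.5 ± 6.01 TPM, those of Slc7a6 12.7 ± 1.92, those of Slc43a2 10.6 ± 2.05 and those of Slc7a1 5.30 ± 1.17. The CCDS transcript of Slc7a5 held all of its TPM, 2.12 ± 0.802, so Slc7a6 and Slc7a5 lay closer together on this count.

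The other carriers differed in how their transcripts divided. Slc38a2 was even over the libraries, with 13.2% ± 0.212 in Slc38a2-202, which keeps the 5 neighbouring introns 3 to 7 (intron 6 is shown above), and the rest in Slc38a2-201. Slc7a6 was divided mainly between the CCDS transcript Slc7a6-201 at 42.9% ± 9.01 and the short coding model Slc7a6-205 at 35.2% ± 5.32. Slc7a6-207, which keeps the intron 4 whose ends are shown above, stood at 8.20%, 9.29% and 20.82% in libraries 1, 2 and 3, a spread that was not tested. Slc7a1 was divided between the CCDS transcript Slc7a1-201 at 46.1% ± 7.21 and 2 single-exon retained-intron models, Slc7a1-204 at 27.5% ± 6.38 and Slc7a1-205 at 16.5% ± 4.23. Slc3a2 was led by the CCDS transcript Slc3a2-201 at 48.8%, 62.4% and 57.1%, with 25.5% ± 6.31 in the coding model Slc3a2-207. All TPM of Slc7a5 was assigned to Slc7a5-201 in each library.

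These shares are per length, and short models weigh more on that scale than in counts. By expected counts the retained-intron share was 62.3% for Slc1a5, 34.1% for Slc38a9, 28.1% for Slc38a1 and 21.4% for Slc7a1, where the median of the 6262 genes was 7.97%. By counts the median of the 9 detected carriers was 17.3%, above that of the 6262 genes, where per TPM the medians were the same. The CCDS transcript Slc38a9-201 held 16.8% of the TPM of Slc38a9 but 57.7% of its counts. The second transcript table gave retained-intron shares of 73.9% for Slc1a5, 60.8% for Slc38a9, 48.9% for Slc7a1 and 43.7% for Slc38a1.

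A second gene table, with whole-number counts for the older GENCODE M4 annotation, gave some of the carriers lower counts. The ratio of its counts to the expected counts was scaled per library so that the median gene is 1, and a gene was called where the tables differed by more than 2-fold in 1 direction in every library. The rule called 2 carriers, both lower in the M4 table, where 12.6% of the 10091 genes compared were lower and 1.17% higher. Slc7a1 had M4 counts of 72, 129 and 158, which are 0.200, 0.284 and 0.402 of the level in the main table. Slc7a5 had 26, 18 and 24, which are 0.399, 0.471 and 0.315. Slc38a1 (0.529, 0.474 and 0.479) and Slc38a2 (0.526, 0.486 and 0.553) lay on either side of the limit. Slc3a2 was the carrier that was higher in the M4 table by most, at 1.56, 1.51 and 1.62, and Slc1a5 was close to even at 1.06, 1.09 and 1.13.

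**Figure D5:**
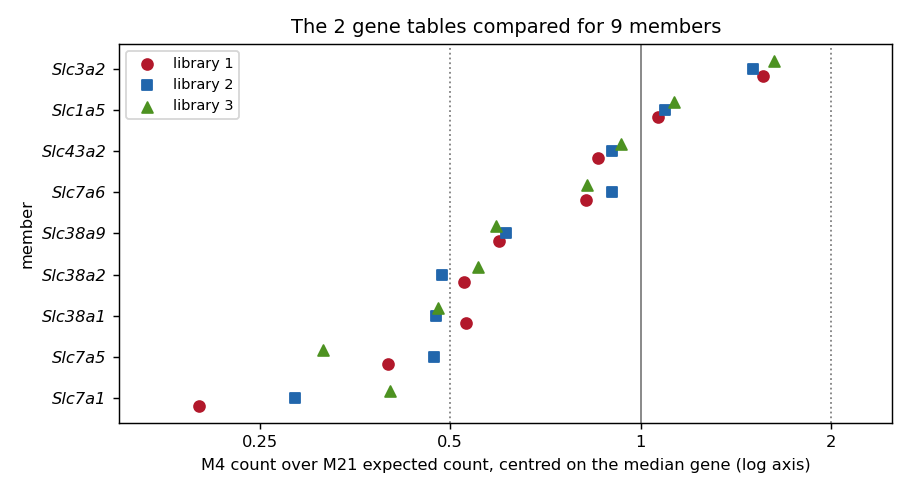
Ratio of the M4 count to the M21 expected count for 9 carriers, centred on the median gene in each library (log axis), with dotted lines at 0.5 and 2. Slc7a1 and Slc7a5 lie below 0.5 in each library and Slc3a2 lies between 1.51 and 1.62.

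Among 35 other amino acid transporters of the plasma membrane few were present: 5 were detected and 13 had no count in any library. The 8 membrane-spanning carriers among the 10 genes, Slc3a2 and the lysosomal Slc38a9 aside, held 84.7% ± 0.279 (SD, n = 3) of the TPM of all plasma membrane carriers listed. This share depends on which genes were listed, and the lists were chosen with earlier results of these data known. The highest of the others was Slc6a6, the taurine transporter, at 14.79, 34.18 and 29.50 TPM, low in library 1 (adjusted chi-square p = 1.15e-22). Whether the gene length trend of library 1 has a part in this was not tested. Slc6a6 was followed by Slc7a10 and by Slc43a1, the LAT3 carrier, at 3.23, 3.75 and 5.56 TPM. Of the 35 genes, 7 had enough counts for the test and 3 were called (42.9%, against 54.5% of all genes tested). Slc6a20b, of the proline transporter family, reached 2-fold, with 14, 52 and 32 counts.

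Of the 21 matched carriers of lysosomes and other organelles, 16 were detected and 5 of 17 tested were called (29.4%, against 54.5% of all genes tested). Their highest members were Slc17a9, a vesicular nucleotide carrier of lysosomes and secretory vesicles, at 61.60, 89.82 and 88.76 TPM, the mitochondrial aspartate and glutamate carrier Slc25a12 at 56.32, 70.39 and 63.13 TPM, and the mitochondrial glutamate carrier Slc25a22 at 28.13, 47.41 and 46.72 TPM. Slc17a9 and Slc25a12 did not pass the test (adjusted chi-square p = 0.173 and 0.293) and Slc25a22 did (5.62e-07).

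The genes that sense amino acids for mTORC1 were nearly all present, with 34 of 35 matched genes detected. Their highest members were the Ragulator subunits Lamtor2, at 221.16, 185.09 and 169.09 TPM, and Lamtor5, at 177.7, 140.32 and 142.09 TPM, and Sec13 of the GATOR2 complex, at 135.34, 139.36 and 139.07 TPM. Of 34 tested genes, 25 were called (73.5%, against 54.5% of all genes tested). Of these, 16 were lowest in library 1 and 8 highest there, Lamtor2 and Lamtor5 among the latter, where 23.9% of all genes tested were called and lowest in library 1 and 24.2% called and highest there. Tsc2, the GTPase activator that restrains Rheb and so mTORC1, was the 1 gene at 2-fold, at 7.36, 22.24 and 17.78 TPM with library 1 low. A part of gene length in the low values of library 1 was not tested for this list.

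The list of the amino acid response holds the kinases that sense scarce amino acids and other stress, the factor Atf4 they act through, its targets, Nfe2l2, and Myc with 2 of its network partners. Of its genes, 20 of 26 were detected, and 14 of 22 tested were called (63.6%, against 54.5% of all genes tested). The highest were the growth regulator Myc at 115.01, 147.06 and 162.93 TPM, the serine synthesis enzyme Phgdh at 112.93, 149.02 and 136.87 TPM, and Mxd4, of the Max partner family, at 72.60, 130.93 and 137.72 TPM. Asns, the asparagine synthetase and a known Atf4 target, was the 1 gene at 2-fold and was lowest in library 2, as Slc7a5 was, at 6.07, 3.46 and 6.77 TPM from 88, 38 and 58 counts (adjusted chi-square p = 2.83e-05). The markers of other cells that were lowest in library 2 are given above, and their part in this was not tested.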

How the data were processed

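Per the deposited readme and the file headers, the authors made a gene table of expected counts, TPM and FPKM for GENCODE M21 on mm10, a transcript table that adds the percent of the gene's TPM per transcript, a second transcript table of estimated counts and TPM, and a table of whole-number gene counts for GENCODE M4. The aligner, quantifiers and strand setting are not named in those sources. Entries that name no gene, 0.117% of counts in library 1, 0.124% in library 2 and 0.135% in library 3, were left out.

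Here, expected counts were rounded, scaled with TMM (edgeR 4.0.16, R 4.3.3) and tested per gene, for genes with 30 or more counts, by a chi-square test of homogeneity with Benjamini-Hochberg adjustment over all genes tested at 0.05. Ratios have 95% exact binomial intervals, which cover counting error only, since PCR copies of 1 molecule cannot be told from separate molecules. Values are mean ± SD over 3 libraries. With 1 group, edgeR's test between groups has nothing to compare. M4 counts were compared as CPM over 22195 shared genes, for genes at 1 or more CPM. Alternatives were DESeq2 1.42.0 size factors, library totals, no count filter, 10 length bins, M4 counts, the second transcript table, posterior mean TPM, other thresholds and leaving out each library. Python 3.11.15, numpy 2.4.6, scipy 1.17.1 and pandas 2.3.3 were used. All 55536 genes matched the M21 annotation, which gave coordinates, classes and sequences.

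The 10 genes and the lists were chosen with earlier results of these data known. Of each list the text names the 3 genes with the highest mean TPM and those called at a ratio of 2 or more. Other genes named are the light chains of the ratio, genes that overlap a carrier and Foxp3. Slc66a1, Slc66a4 and Samtor matched no symbol and are named only.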

Additional observations from a re-analysis of the deposited data

How the results depend on the processing

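The number of detected carriers, 9, became 8 at 5 TPM or in the second transcript table and 10 in that table scaled to the main one, a setting chosen after seeing the data. The 6 calls between libraries, beside 54.5% of all genes tested, became 8 with library totals (56.2% of all genes) or M4 counts (63.7%), 4 without library 1 (17.2%), 5 without library 2 (49.3%) and 4 without library 3 (46.5%). There were 6 with length bins (45%) and with no filter on counts (28.2%). The same 6 genes were called with DESeq2 size factors (54.4%), and Slc1a5 was called under each of the 8 alternatives. No carrier changed direction at a called value in the 1 pair of libraries followed for each gene. Where a library of that pair was left out, the new pair was ordered by the main result. A change of direction was hardly possible there. The heavy to light chain ratio lay between 1.21 and 1.59 over its alternatives, lowest by posterior mean TPM, which was added after seeing the data. With a limit of 1.5-fold, 6 carriers differed between gene tables in place of 2, and leaving out a library gave 2 to 3. In the second transcript table the share of Slc7a6 was 7.79% and of Slc7a11 0.476% of the summed TPM. There the leading transcript took a mean of 82.4% of Slc7a5, 48.6% of Slc3a2 and 84.0% of Slc38a2. For Slc7a5 it took 47.2% in library 2 and 100% in libraries 1 and 3. By percent of counts, chosen after seeing the data, the main table's leading transcript took 64.9% of Slc3a2, 58.7% of Slc1a5, 83.3% of Slc38a2, 77.3% of Slc7a1, 69.4% of Slc7a6, 61.3% of Slc43a2 and 7.58% of Slc38a9. The cause of these shifts was not tested, except that counts are not divided by length. Slc7a5, with 32 to 62 counts, and Slc7a11 are limited by depth. No paired analysis was possible because the libraries form 1 group. M4 counts per length were not run for the heavy to light chain ratio.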

Other observations

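Genes that use the amino acids carried were present as well. Of 16 genes of glutamine and glutamate metabolism, 15 were detected, and 5 of 15 tested were called between libraries (33.3%, against 54.5% of all genes tested). The mitochondrial aspartate aminotransferase Got2 stood at 95.48, 119.24 and 116.01 TPM in libraries 1, 2 and 3, its cytosolic form Got1 at 37.35, 39.99 and 39.77 TPM and the glutamine synthetase Glul at 27.75, 28.99 and 32.67 TPM. Cad, which starts pyrimidine synthesis from glutamine, was the 1 gene at 2-fold and was low in library 1, at 3.59, 11.07 and 11.67 TPM (adjusted chi-square p = 1.90e-26). The part of the gene length trend of library 1 in this was not tested.

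Of 16 genes of leucine, arginine and tryptophan metabolism, 10 were detected, 6 of 10 tested were called (60%, against 54.5% of all genes tested) and 3 had no count. Ass1, the argininosuccinate synthase that makes arginine from citrulline, was the highest at 412.53, 423.92 and 405.71 TPM, above each of the 10 carriers in each library. It was followed by the argininosuccinate lyase Asl at 88.01, 80.53 and 83.17 TPM and by Bckdk, the kinase that restrains branched-chain ketoacid breakdown, at 70.34, 85.17 and 59.09 TPM. Il4i1, a secreted amino acid oxidase, reached 2-fold with 38, 23 and 47 counts and was lowest in library 2, where plasma cell, erythroid and B cell markers were lowest too, a part that was not tested.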
